A study of Homo sapiens with 12 samples.

Results

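The results concern 10 genes that the transcription factor p53 is known to switch on and whose products act in apoptosis, redox metabolism or the tuning of p53 signalling: BBC3, BAX, PMAIP1, AEN, TP53I3, FDXR, TP53INP1, TIGAR, TRIAP1 and PHLDA3. They were named one by one and found by symbol among the 60649 genes of each count table. All 10 passed the expression filter and so belong to the 16683 genes tested. RNA was sequenced from SBC3, an established human small cell lung cancer line grown as spheroids, in 12 libraries. They form 4 groups of 3: a control, teriflunomide alone, lurbinectedin alone, and teriflunomide with lurbinectedin, called the combination. Teriflunomide inhibits DHODH, an enzyme of pyrimidine synthesis, and lurbinectedin binds DNA and blocks transcription. The labels give no genotype change, vehicle, dose or exposure time for any group, and they do not say whether the 3 libraries of a group came from separate cultures, so a p-value measures only the spread between these libraries.

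As background, p53 is held at a low level by MDM2 and is stabilised by damage to DNA and by stress to the nucleolus or to nucleotide supply. It then binds pairs of a 10-base DNA motif near its targets. Its apoptotic targets act mostly at the mitochondrion: the BH3-only proteins PUMA (BBC3) and NOXA (PMAIP1) block the protective members of the BCL2 family, and BAX makes the pore in the outer membrane. Other targets shift metabolism or dampen the response, so p53 can raise killing and sparing genes at the same time.

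The promoters of the genes were searched for the p53 decamer motif, because the members share p53 as a known regulator. RefSeq promoters of the GRCh38.p14 build, which run from 250 bases before to 50 bases after a start, were found for 8 of the 10 genes. None was matched for TP53INP1 and PHLDA3. The motif was read on both strands. A perfect copy stood in the promoters of AEN and FDXR, against 6.63% of all 35116 promoters. A pair of copies, set side by side or 1 base apart, with at most 2 mismatches in all and the fixed C and G of each copy kept, was in 1 of the 8 genes (AEN) and in 0.533% of all promoters. With at most 3 mismatches, a limit widened after the first scan, 3 of the 8 genes (AEN, FDXR and PMAIP1) and 2.38% of all promoters held a pair. The 3 windows are shown 5′ to 3′ on the strand of the gene, with the pair in capitals.
AEN, chr15:88621276-88621339, plus strand: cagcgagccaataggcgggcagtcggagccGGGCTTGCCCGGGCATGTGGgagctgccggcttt
FDXR, chr17:74872995-74873045, minus strand: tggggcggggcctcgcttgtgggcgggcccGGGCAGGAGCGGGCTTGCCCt
PMAIP1, chr18:59899781-59899860, plus strand: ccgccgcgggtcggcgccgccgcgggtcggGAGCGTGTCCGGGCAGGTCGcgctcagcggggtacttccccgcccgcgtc
The pair began at position -34 from the start in AEN, at -21 in FDXR and at -185 in PMAIP1, and had 2, 3 and 3 mismatches. The perfect copy was the same run of 10 letters in AEN and FDXR, GGGCTTGCCC. On the strand of the gene, the only strand read for this count, that run stood in 25 promoters (0.0712%). A match describes letters, not binding, and these windows miss elements that lie farther upstream or in introns.

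Total counts per library ranged from 23206414 to 33222162. The first principal component took 85.9% of the variance and set the 6 libraries with lurbinectedin apart from the other 6. Teriflunomide replicate 3 stood apart on the second component (5.19%), at 65.6 against -24.0 to 25.8 in the other libraries. It correlated with its group at 0.977 or more, against at least 0.986 in the other groups. Its mitochondrially encoded share of counts was 22.6%, against 8.42% and 8.43% in the other teriflunomide libraries, and that of combination replicate 2 was 24.9%, against 14.6% and 13.1% in the rest of its group. The cell line's label was set against its markers: INSM1, NCAM1 and EPCAM had between 0 and 2 counts per library, while YAP1 (246 CPM, counts scaled to a common library size) and KRT8 (243 CPM) were high in the control group and NEUROD1 was low, at 4.03 CPM. PTPRC, a defining marker of blood cells, had 0 to 3 counts. Among 8 blood, endothelial and stromal markers, CD3E and LUM had 0 counts in all libraries, the other markers stayed below 1 CPM, and COL1A1 was high, at 266 CPM in the control group.

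All 10 genes rose with lurbinectedin, and their summed expression went from 253 to 267 CPM in the control libraries to between 1546 and 1624 CPM. FDXR and PMAIP1 rose most, by 4.65 each on the log2 scale, and TRIAP1 and BAX least, by 1.61 and 1.65. In that comparison 71.6% of all genes tested were called, 36% as higher and 35.7% as lower, at an adjusted p under 0.05 in edgeR's quasi-likelihood test with Benjamini-Hochberg adjustment. The median log2 change was 2.99 over the 10 genes and 0.05 over all genes. These levels are relative to the other genes of a library, and a change in the total RNA per cell was not measured. In every one of the 10 genes each lurbinectedin library lay above each library without lurbinectedin. Groups that did not overlap, with lurbinectedin above control, occurred in 42.4% of all genes. Markers of cell types moved with lurbinectedin too, in both directions. The summed level of 8 small cell and neuroendocrine markers was 257 to 281 CPM in the control group, most of it YAP1, and 94.5 to 104 CPM with lurbinectedin, 7 of the 8 having a count in some library. Of the 4 of them tested, YAP1 (-1.92) and NEUROD1 (-1.31) fell and SYP (0.88) and CHGA (2.74) rose. The 3 epithelial markers, chiefly KRT8, summed to 236 to 252 CPM in control and 400 to 433 CPM with lurbinectedin, and KRT8 rose by 0.80 (adjusted p = 0.000131). The blood, endothelial and stromal list, nearly all of it COL1A1, summed to 260 to 273 CPM in control and 96.5 to 114 CPM with lurbinectedin. Their part in the rise was not tested, and in bulk RNA fewer cells of a type and less RNA per cell cannot be told apart.

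**Figure D1:**
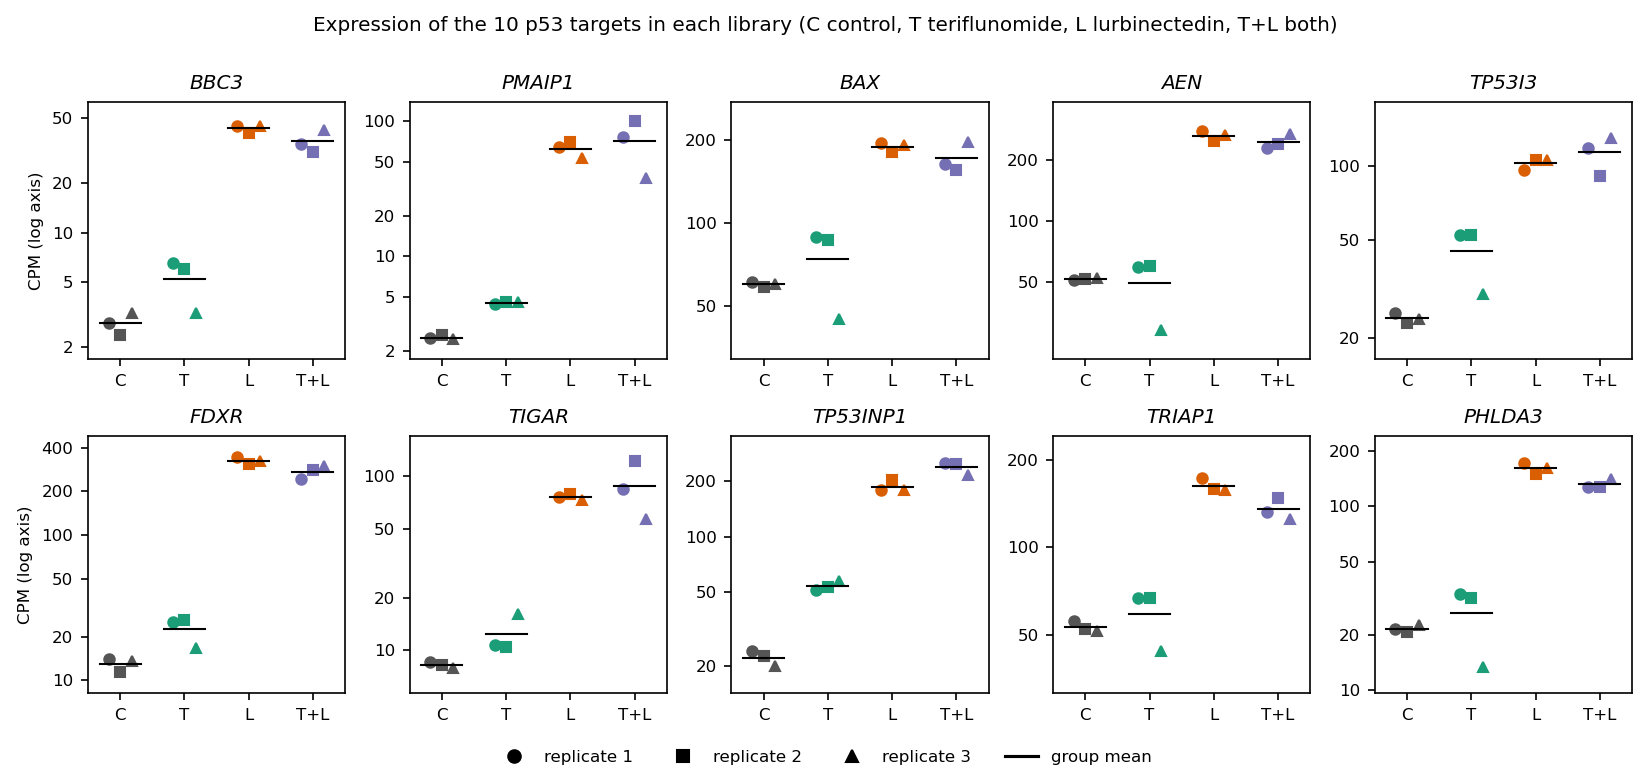
Expression of each of the 10 genes in CPM (log axis) in the 12 libraries, 1 point per library, with the group mean as a bar. Every library with lurbinectedin sits above every library without it in all 10 genes, and the third teriflunomide library sits low in 7 of them.

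BBC3 encodes PUMA, which binds all the protective BCL2 proteins. The gene lies on the minus strand at chr19:47220822-47232766 (hg38). Its level was 2.82, 2.37 and 3.26 CPM in the control libraries and 6.51, 6.02 and 3.24 CPM with teriflunomide. Lurbinectedin libraries held 44.8, 40.5 and 44.7 CPM and combination libraries 34.8, 30.9 and 41.9 CPM. The first and second teriflunomide libraries stood above all controls, whereas the third fell within the control range. The change was 3.94 ± 0.232 (log2, SE, adjusted p = 3.69e-09, edgeR) with lurbinectedin and 0.90 ± 0.229 (adjusted p = 0.0357) with teriflunomide. Both are called, and with the combination the change was 3.67 ± 0.23 (adjusted p = 8.55e-09). The teriflunomide call was lost on leaving out each control library in turn, teriflunomide replicate 1 (adjusted p = 0.0778, edgeR) or replicate 2 (0.0867). It was kept without teriflunomide replicate 3 (0.000314). Total counts as the only scaling (0.1745) and a fit of only the groups compared (0.144) also lost it.

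PMAIP1 encodes NOXA, the BH3-only protein that targets the survival protein MCL1. The gene lies on the plus strand at chr18:59899996-59904305. Control libraries held 2.48, 2.61 and 2.42 CPM and teriflunomide libraries 4.46, 4.58 and 4.6 CPM. With lurbinectedin the level was 65.0, 69.7 and 53.6 CPM, and with the combination 77.0, 99.97 and 38.3 CPM. The teriflunomide libraries were close to each other and all above control, while the combination libraries were the most spread of any group. The rise was 4.65 ± 0.294 (adjusted p = 7.29e-09) with lurbinectedin and 4.84 ± 0.296 (adjusted p = 6.73e-09) with the combination, in edgeR. The difference of 0.86 ± 0.289 with teriflunomide did not pass (adjusted p = 0.0917). DESeq2 called it (adjusted p = 0.0278), as did edgeR without the expression filter (0.000383) and with only the control and teriflunomide groups in the fit (0.0339).

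BAX, the pore-forming protein on which the BH3-only proteins converge, lies on the plus strand at chr19:48954815-48961798. It was already abundant in the control libraries, at 61.1, 58.6 and 60.1 CPM. Teriflunomide libraries held 89.0, 86.8 and 44.8 CPM. Lurbinectedin libraries held 194.7, 180.3 and 190.8 CPM and combination libraries 162.5, 155.7 and 196.0 CPM. The third teriflunomide library was below all controls and the other teriflunomide libraries were above them. BAX rose by 1.65 ± 0.198 (log2, SE, adjusted p = 4.33e-06, edgeR) with lurbinectedin, and its difference with teriflunomide was 0.30 ± 0.194 (adjusted p = 0.360).

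AEN encodes a nuclease that cuts DNA during apoptosis and has the promoter pair with the fewest mismatches in the set. It lies on the plus strand at chr15:88621337-88632281. Its level was 51.2, 51.6 and 52.2 CPM in control libraries and 59.1, 59.9 and 29 CPM with teriflunomide. Lurbinectedin libraries held 277.5, 247.7 and 265.0 CPM and combination libraries 228.1, 238.7 and 267.9 CPM. Again the third teriflunomide library was the lowest of all 12, and the other teriflunomide libraries exceeded every control. The rise with lurbinectedin was 2.35 ± 0.207 (adjusted p = 1.94e-07, edgeR), and the difference with teriflunomide was -0.07 ± 0.199 (adjusted p = 0.865). Without the third teriflunomide library that difference was 0.20 and still not called (adjusted p = 0.150).

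The mitochondrial and redox enzymes came next. FDXR, ferredoxin reductase, passes electrons from NADPH to the mitochondrial ferredoxins that serve iron-sulfur cluster and steroid synthesis, and lies on the minus strand at chr17:74862497-74873031. Its level was 14, 11.4 and 13.5 CPM in control, 25.1, 26.1 and 16.8 CPM with teriflunomide, 345.2, 311.0 and 322.4 CPM with lurbinectedin, and 242.3, 280.5 and 299.7 CPM with the combination. No 2 of the 4 groups overlapped, and the combination libraries all lay below the lurbinectedin libraries. FDXR rose by 4.65 ± 0.172 (log2, SE) with lurbinectedin, a 25.2-fold change (adjusted p = 8.60e-11, edgeR), and by 0.81 ± 0.154 (adjusted p = 0.0101) with teriflunomide. TP53I3, also known as PIG3, is a quinone oxidoreductase linked to reactive oxygen species and lies on the minus strand at chr2:24077433-24085861. Its level was 25.4, 23 and 23.8 CPM in control libraries, 52.6, 52.5 and 30.2 CPM with teriflunomide, 96.9, 105.8 and 105.9 CPM with lurbinectedin, and 119.1, 91.5 and 130.9 CPM with the combination. All teriflunomide libraries exceeded control, and the lurbinectedin and combination groups overlapped. TP53I3 rose by 2.1 ± 0.192 with lurbinectedin (adjusted p = 2.83e-07) and by 0.91 ± 0.187 with teriflunomide (adjusted p = 0.0145).

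TIGAR, a phosphatase that lowers glycolytic flux and favours the pentose phosphate pathway, spans the longest stretch of the set, 52.3 kb on the plus strand at chr12:4307763-4360028. Its level was 8.61, 8.19 and 7.92 CPM in control libraries and 10.8, 10.4 and 16.2 CPM with teriflunomide. Lurbinectedin libraries held 76.2, 78.8 and 72.9 CPM and combination libraries 84.7, 122.1 and 57.0 CPM. Here the third teriflunomide library was the highest of its group, and the combination libraries spread over both sides of the lurbinectedin group. The rise with lurbinectedin was 3.20 ± 0.245 (adjusted p = 4.51e-08, edgeR). The difference of 0.60 ± 0.235 with teriflunomide did not pass (adjusted p = 0.140), although the groups did not overlap. It was called without the expression filter (0.57, adjusted p = 0.0107). Of TIGAR's exonic length, 18.1% is shared on the same strand with ENSG00000285901, which had 0 counts in every library.

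TP53INP1 encodes a stress protein that promotes p53 phosphorylation and autophagy, and lies on the minus strand at chr8:94925972-94949378. Control libraries held 24.2, 22.6 and 19.9 CPM and teriflunomide libraries 51.5, 53.3 and 57.9 CPM. With lurbinectedin the level was 178.1, 204.0 and 178.2 CPM, and with the combination 251.3, 247.3 and 215.9 CPM. The 4 groups formed 4 separate steps with no overlap. TP53INP1 had the largest change of the set with teriflunomide, 1.29 ± 0.109 (log2, SE, adjusted p = 5.55e-05, edgeR), and changed by 3.07 ± 0.115 with lurbinectedin (adjusted p = 8.60e-11).

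TRIAP1 and PHLDA3 complete the set. TRIAP1 is a small protein that works with PRELI proteins in lipid transfer to the inner mitochondrial membrane and opposes apoptosis, and its gene lies on the minus strand at chr12:120443964-120446384. It measured 55.8, 52.4 and 51.4 CPM in control libraries, 66.7, 66.6 and 44.0 CPM with teriflunomide, 172.4, 158.3 and 156.9 CPM with lurbinectedin, and 132.2, 147.5 and 125.1 CPM with the combination. Combination libraries all lay between the teriflunomide and the lurbinectedin libraries. TRIAP1 rose by 1.61 ± 0.143 with lurbinectedin (adjusted p = 2.08e-07, edgeR) and differed by 0.15 ± 0.140 with teriflunomide (adjusted p = 0.520). PHLDA3 is a short lipid-binding protein that competes with the survival kinase AKT at membranes, and lies on the minus strand at chr1:201464278-201469237. Its level was 21.4, 20.7 and 22.5 CPM in control, 33.5, 31.7 and 13.4 CPM with teriflunomide, 173.3, 149.5 and 161.7 CPM with lurbinectedin, and 127.9, 127.0 and 140.5 CPM with the combination. The third teriflunomide library was the lowest of the 12 for both genes. PHLDA3 rose by 2.91 ± 0.248 with lurbinectedin (adjusted p = 1.43e-07) and differed by 0.29 ± 0.236 with teriflunomide (adjusted p = 0.469). A same-strand gene, ENSG00000224818, shares 18.4% of PHLDA3's exonic length and had 0 counts.

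Taken per kilobase of exon, which allows genes to be set against each other, the order of levels differed between the groups. In the control group TRIAP1 led with 37.7 ± 1.64 CPM per kb (SD, n = 3), followed by BAX at 23.2 ± 0.479 and TP53I3 at 10.4 ± 0.519. PMAIP1 (1.14 ± 0.0439), BBC3 (0.884 ± 0.139) and TIGAR (0.873 ± 0.0371) were lowest, and the ranges of the last pair overlapped, as did those of TP53INP1 and FDXR. With lurbinectedin TRIAP1 still led at 115.2 ± 6.08 CPM per kb, but FDXR had moved from the seventh place to the second, at 90.6 ± 4.84, ahead of BAX at 72.9 ± 2.87. BBC3 (13.6 ± 0.764) and TIGAR (8.04 ± 0.315) remained the lowest pair and no longer overlapped. With the combination, the 4 genes from TP53I3 to PHLDA3 in the order lay between 49.2 and 40.6 CPM per kb, and each overlapped its neighbour in that order. The full exonic length was used for every gene. In TIGAR 18.1% and in PHLDA3 18.4% of it is shared with same-strand genes at 0 counts, so their places are less sure.

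With teriflunomide alone, 4 of the 10 genes rose: TP53INP1, FDXR, TP53I3 and BBC3. The share of all genes called was 6.01%, with 3.88% higher and 2.13% lower. The median log2 change was 0.70 over the 10 genes and 0.03 over all genes. The groups did not overlap in 5 genes (TP53INP1, FDXR, TP53I3, PMAIP1 and TIGAR), each with teriflunomide above control, and the same held for 20.1% of all genes. None of the 10 fell. Fewer genes were called when a control library was left out: TP53INP1 and FDXR without control replicate 1 or 3, and TP53INP1 alone without control replicate 2. Over all genes 248, 265 and 216 were called without control replicates 1, 2 and 3, against 1002 with all libraries. The adjusted p of TP53I3 was then 0.0584, 0.0736 and 0.0777 without replicates 1, 2 and 3, that of BBC3 0.129, 0.146 and 0.0930, and that of FDXR without replicate 2 was 0.0627.

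Within the teriflunomide group 1 library stood apart. The first and second teriflunomide libraries lay above every control in all 10 genes, and the third lay below both of them in 7: BBC3, BAX, AEN, TP53I3, FDXR, TRIAP1 and PHLDA3. Relative to the mean of the other teriflunomide libraries its log2 level was -1.27 in PHLDA3, -1.04 in AEN, -0.97 in BAX and -0.94 in BBC3, against a median of 0.01 over all genes. In BAX, AEN, TRIAP1 and PHLDA3 it lay below every control. Against the mean of the other teriflunomide libraries it stood higher in PMAIP1 (0.03), TP53INP1 (0.14) and TIGAR (0.60). Without this library 7 genes were called higher, with a background of 5.51% higher and 9.11% in all: the 4 above together with BAX (0.55, adjusted p = 0.00120), PHLDA3 (0.60, adjusted p = 0.000578) and TRIAP1 (0.32, adjusted p = 0.0291). PMAIP1 (0.85, adjusted p = 0.259) and TIGAR (0.36, adjusted p = 0.399) were not. The same library had the mitochondrial share of 22.6% given above, and the part of that share in these values was not tested.

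**Figure D2:**
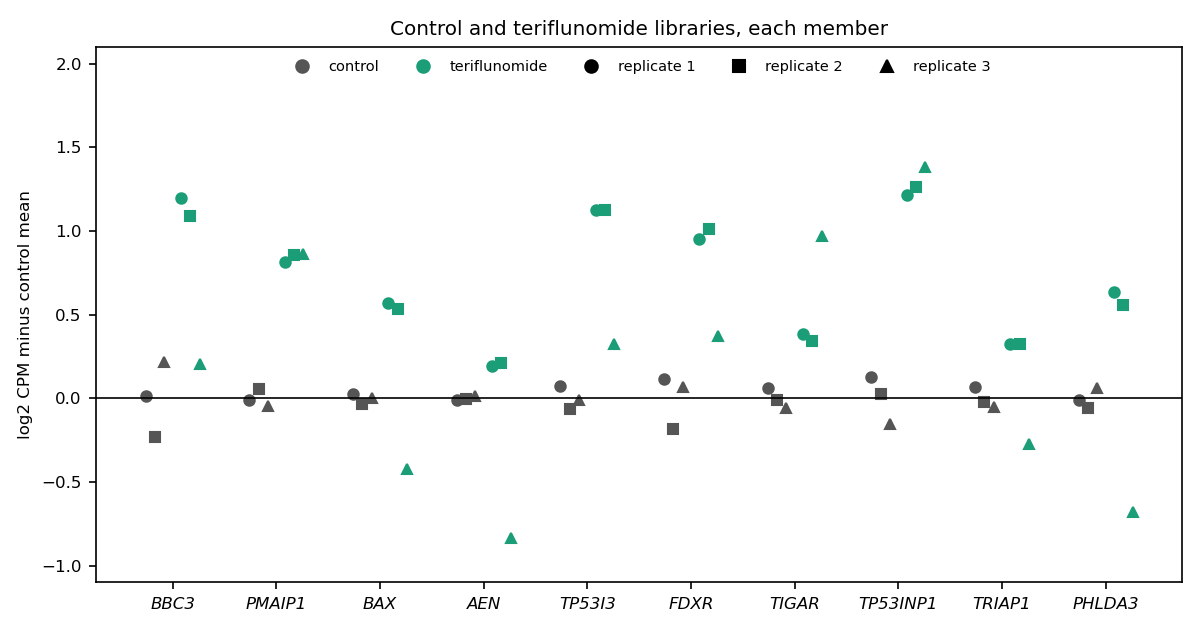
Log2 level of each gene in the 3 control and the 3 teriflunomide libraries relative to the control mean, 1 point per library. Teriflunomide replicates 1 and 2 lie above 0 in all 10 genes, while teriflunomide replicate 3 lies below 0 in BAX, AEN, TRIAP1 and PHLDA3.

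All 10 genes rose with the combination against the control, where 68.4% of all genes were called, 34.1% as higher and 34.4% as lower. The median change was 3.01 over the 10 genes and 0.04 over all genes. PMAIP1 and FDXR again changed most, by 4.84 and 4.4, and TRIAP1 least, by 1.34 ± 0.142 (adjusted p = 1.50e-06, edgeR). Summed over the 10 genes the combination libraries held 1460, 1541 and 1513 CPM. The 3 control libraries serve in this comparison and in those of either drug alone, so the values are set side by side and are not independent. Against teriflunomide, all 10 genes were higher with the combination (70.9% of all genes called, 35.2% as higher) and with lurbinectedin (74.7% called, 37.2% as higher). The smallest of these changes were 1.19 in TRIAP1 for the combination and 1.19 in TP53I3 for lurbinectedin.

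**Figure D3:**
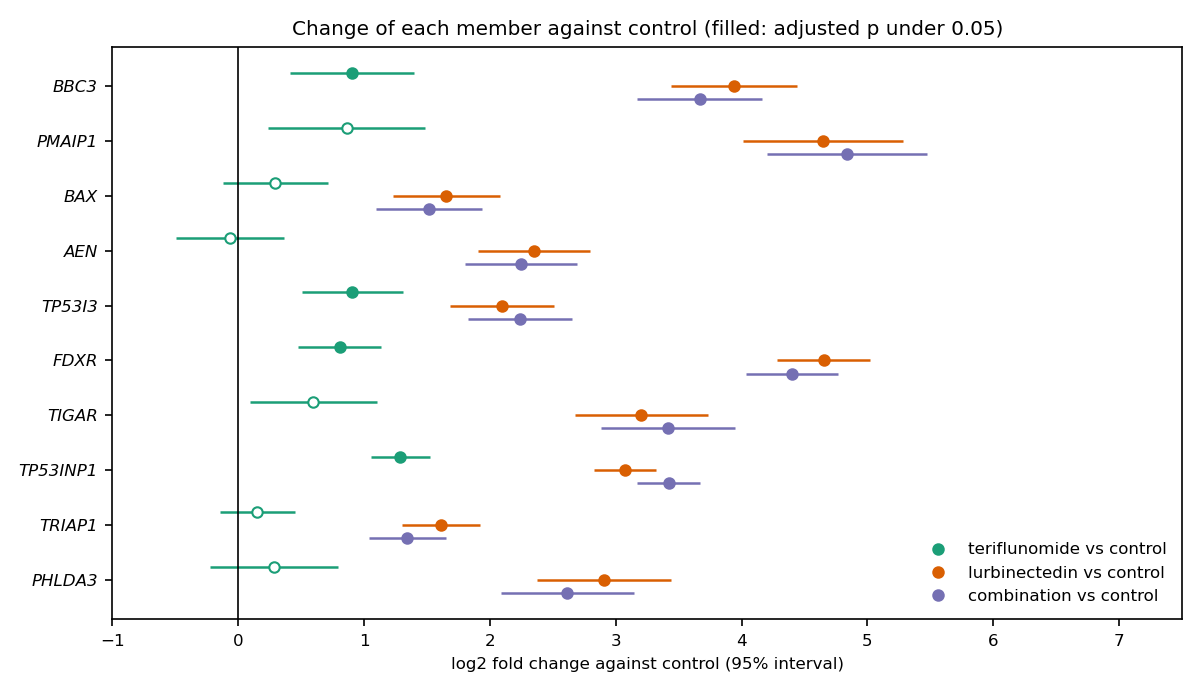
Log2 fold change of each gene against control for teriflunomide, lurbinectedin and the combination, with 95% intervals. All intervals for lurbinectedin and the combination lie above 1, and those for teriflunomide lie nearer to 0.

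Adding teriflunomide to lurbinectedin gave no called change in any of the 10 genes. None of all genes tested was called either (0%), with 2599 at an unadjusted p under 0.05 in edgeR and 584 (3.5%) called by DESeq2. The groups did not overlap in 4 genes: TP53INP1 was higher with the combination, and FDXR, TRIAP1 and PHLDA3 were lower. Over all genes 11.1% lay wholly higher and 12.6% wholly lower. TP53INP1 differed by 0.35 (95% interval 0.13 to 0.58, adjusted p = 0.175, edgeR), and DESeq2 called it (0.36, adjusted p = 0.0285). FDXR differed by -0.25 (-0.56 to 0.06), TRIAP1 by -0.27 (-0.57 to 0.03) and PHLDA3 by -0.29 (-0.79 to 0.20). The intervals of BBC3 (-0.70 to 0.15), BAX (-0.55 to 0.28) and AEN (-0.53 to 0.32) span 0. The widest interval was that of PMAIP1, -0.33 to 0.71.

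In the combination group PMAIP1 and TIGAR varied together across libraries. Relative to the other libraries of the group, replicate 2 stood at 0.88 in PMAIP1 and 0.81 in TIGAR, and replicate 3 at -1.19 and -0.83. Without replicate 2 the difference from lurbinectedin was -0.12 in PMAIP1 and -0.10 in TIGAR, the reverse sign of 0.19 and 0.21 with all libraries, and neither was called in either case. Replicate 2 is the library with the mitochondrial share of 24.9%, whose part was not tested. With both this library and teriflunomide replicate 3 left out, a choice made after the data were seen, 5 of the 10 genes were called between the combination and lurbinectedin, against a background of 21.5%. TP53INP1 (0.33, adjusted p = 0.0103) and TP53I3 (0.28, adjusted p = 0.0106) were higher, and TRIAP1 (-0.33, adjusted p = 0.00295), PHLDA3 (-0.26, adjusted p = 0.0202) and FDXR (-0.26, adjusted p = 0.0374) were lower.

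The interaction, which is the log2 effect of teriflunomide with lurbinectedin present minus its effect without it, was below 0 in all 10 genes and called in 1. The background was 0.258% called, 0.222% as lower. The median interaction was -0.62 over the 10 genes and 0.02 over all genes. The same control and teriflunomide libraries serve in the comparison of teriflunomide with control, so these results are not independent. TP53INP1 was the called gene, at -0.94 (95% interval -1.26 to -0.61, SE 0.150, adjusted p = 0.0193, edgeR): teriflunomide changed it by 1.29 without and 0.35 with lurbinectedin. FDXR followed at -1.06 (-1.51 to -0.60, adjusted p = 0.0630) and BBC3 at -1.18 (-1.82 to -0.53, adjusted p = 0.172), and neither was called. AEN was nearest to 0, at -0.04 (-0.64 to 0.56). Its sign turned positive, to 0.07, when libraries were scaled by their totals alone. Over 20 alternatives the value of TP53INP1 lay between -1.0 and -0.79 and its adjusted p between 3.65e-06 and 0.234. The call was lost on leaving out any 1 control library, any 1 lurbinectedin library or combination replicate 1. Without the third teriflunomide library 7 genes were called lower (background 2.16% lower and 3.61% in all): BBC3 (-1.41), FDXR (-1.22), TP53I3 (-0.97), PHLDA3 (-0.88), TP53INP1 (-0.88), BAX (-0.68) and TRIAP1 (-0.59).

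**Figure D4:**
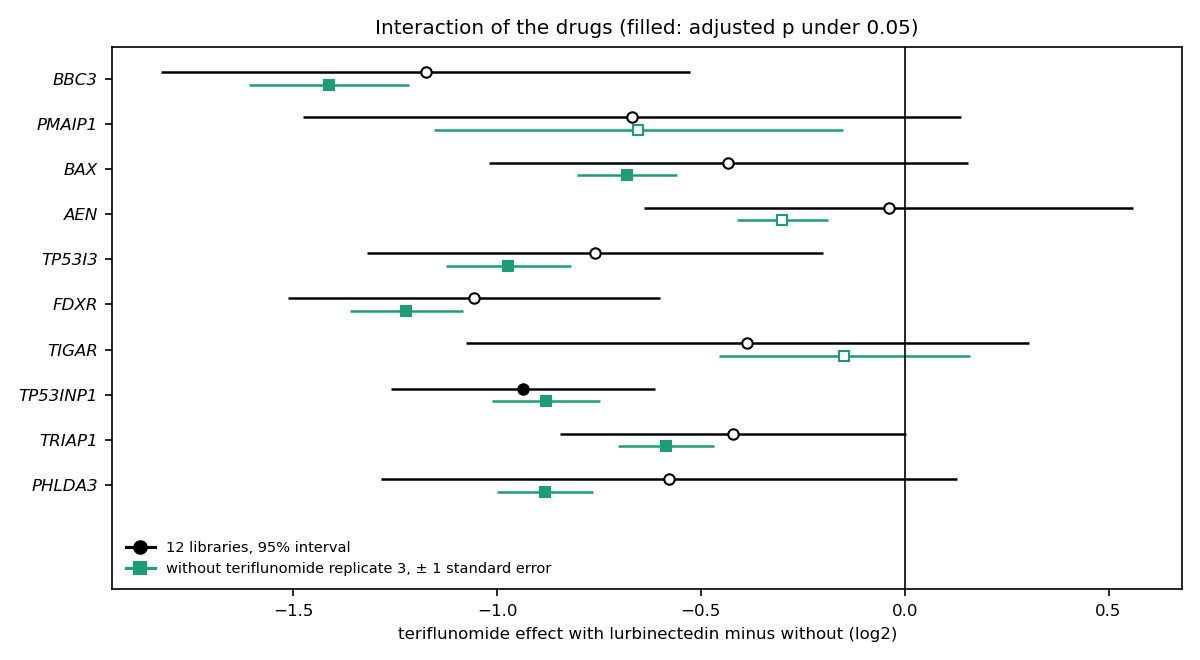
Interaction of the drugs in each gene, as the log2 effect of teriflunomide with lurbinectedin minus its effect without. Circles show the fit of all 12 libraries with 95% intervals. Squares show the fit without teriflunomide replicate 3, with bars of 1 standard error. Filled symbols mark an adjusted p under 0.05 in edgeR. With all 12 libraries TP53INP1 is the called gene of the 10, at -0.94.

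Genomic span, the distance from the first to the last exon, was a feature the choice of genes had not used. Among all genes tested the median log2 change with lurbinectedin went from 0.69 in the shortest of 5 equal bins (53 to 5261 bases) to -0.36 in the fourth (35937 to 82931 bases) and -1.86 in the longest. The bins of the 10 genes were short: PMAIP1, TRIAP1 and PHLDA3 fell in the first, BBC3, BAX, AEN, TP53I3 and FDXR in the second, TP53INP1 in the third and TIGAR in the fourth, and none in the longest. Each gene lay above the median of its bin. TIGAR was the one gene whose sign was opposite to the median of its bin, at 3.20 against -0.36, while TRIAP1, the shortest gene at 2.42 kb, changed by 1.61 in a bin with a median of 0.69.

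**Figure D5:**
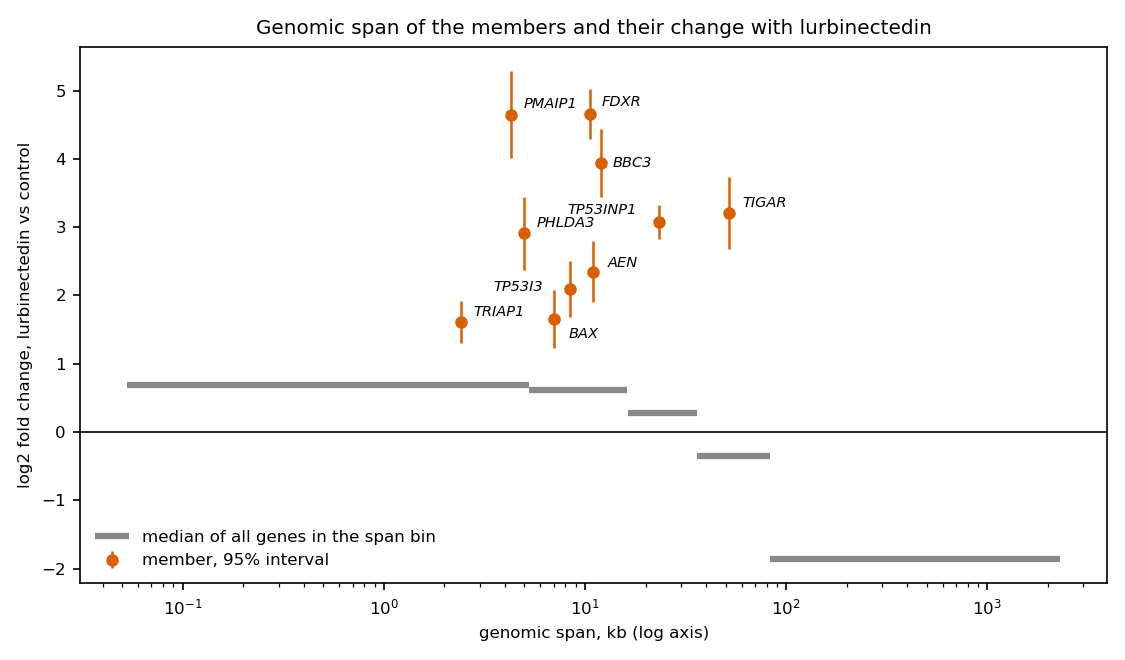
Log2 fold change with lurbinectedin against genomic span in kb (log axis) for the 10 genes with 95% intervals, and the median of all genes in 5 span bins as grey lines. All 10 points lie above the line of their bin, and the lines fall from 0.69 to -1.86 with span.

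The remainder of the p53 pathway was described from lists written with earlier results of these data known. Of 28 tested other p53 targets, 25 rose and 1 fell with lurbinectedin (median 2.1), beside 36% higher and 35.7% lower over all genes, among them the antiproliferative gene BTG2 (4.46 ± 0.120, adjusted p = 8.38e-12) and the death receptor FAS (3.0 ± 0.13, adjusted p = 2.52e-10). The one that fell was the helicase gene ASCC3 (-2.11 ± 0.192). With teriflunomide 16 of the 28 rose and none fell (median 0.87), beside 3.88% and 2.13% over all genes, including BTG2 (1.30 ± 0.107, adjusted p = 5.55e-05), FAS (1.17 ± 0.125) and the ribonucleotide reductase subunit RRM2B (0.97 ± 0.116). Without the third teriflunomide library the count was 22, beside 5.51% higher over all genes. The interaction was called lower in 5 of the 28 (0.222% over all genes): BTG2 (-1.38), GADD45A (-1.43), FAS (-1.06), RPS27L (-1.04) and SESN1 (-0.93). It was called lower in 17 without that library (2.16% over all genes). Between the combination and lurbinectedin none of the 28 was called.

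Genes that regulate p53 moved otherwise. Of 19 tested, 16 fell and 1 rose with lurbinectedin (median -0.73), beside 35.7% lower and 36% higher over all genes. None was called with teriflunomide, beside 6.01% over all genes. The kinase genes HIPK2 (-4.17 ± 0.198) and CHEK2 (-2.37 ± 0.128) and the ubiquitin ligase gene COP1 (-3.96 ± 0.226) were among those that fell (edgeR). Genomic span, with which the median change with lurbinectedin fell over all genes, was not taken into account for the genes outside the set. In the combination 14 of the 19 genes fell and 1 rose, beside 34.4% lower and 34.1% higher over all genes.

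The mitochondrial apoptosis machinery around BBC3, PMAIP1 and BAX showed no called gene of 19 with teriflunomide, beside 6.01% over all genes. With lurbinectedin 10 were higher and 3 lower (median 0.49). Over all genes 71.6% were called with lurbinectedin, so the count of 13 called of 19 is near that share. The BH3-only genes BCL2L11, which encodes BIM (1.75 ± 0.109), and BIK (3.58 ± 0.263) rose. MCL1, the survival protein that NOXA binds, rose as well, from 273 ± 5.52 to 897 ± 25.9 CPM (1.72 ± 0.116, adjusted p = 1.33e-08). BAK1, the partner of BAX in the pore, rose by 2.05 ± 0.263 (adjusted p = 8.45e-06). The protective genes BCL2 (-0.71 ± 0.152) and BCL2L1 (-0.53 ± 0.168) and the caspase inhibitor XIAP (-0.91 ± 0.136) fell. In the combination the count was again 10 higher and 3 lower, beside 68.4% called over all genes, 34.1% as higher and 34.4% as lower.

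Close relatives and partners of the 10 genes were set beside them. Of 20 tested, 11 rose and 5 fell with lurbinectedin, and 1 rose and 3 fell with teriflunomide. The 16 called of 20 with lurbinectedin stand beside 71.6% over all genes, and the teriflunomide counts beside 3.88% higher and 2.13% lower. TP53INP2, the paralog of TP53INP1, changed by 1.42 ± 0.103 with lurbinectedin and by 0.17 ± 0.102 (adjusted p = 0.323) with teriflunomide. PHLDA2, a relative of PHLDA3, rose by 2.43 ± 0.211 with lurbinectedin, and PHLDA1 rose by 0.87 ± 0.175 (adjusted p = 0.0131) with teriflunomide. ISG20L2, a relative of the nuclease AEN, rose by 1.05 ± 0.0955 with lurbinectedin. FDX1, the ferredoxin that FDXR reduces, held 23.6 ± 1.18 CPM in control and 25.8 ± 1.83 CPM with lurbinectedin (0.13 ± 0.115, adjusted p = 0.310), beside the 25.2-fold change of FDXR. CRYZ, a quinone oxidoreductase related to TP53I3, fell by 1.24 ± 0.114. Around TIGAR, the hexokinase gene HK2 fell with teriflunomide (-0.71 ± 0.0827, adjusted p = 0.000545) and with lurbinectedin (-1.0 ± 0.0833), and the glycolytic genes PGAM1 (-0.70 ± 0.126) and PFKFB3 (-0.57 ± 0.133) fell with teriflunomide.

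For each of the 10 genes the tested gene with the most similar pattern was found by the root mean square difference of log2 CPM over the 12 libraries, after each gene was centred. For FDXR it was CDKN1A, the cell cycle inhibitor p21 (0.137), followed by GDF15 (0.208). For TP53INP1 it was FAS (0.140). BAX was nearest to POLG, the mitochondrial DNA polymerase (0.0852), TRIAP1 to TIMP1 (0.0844), AEN to PNPLA2 (0.0953), PHLDA3 to HELZ2 (0.106) and TP53I3 to UNC13D (0.145). BBC3 was nearest to IL11 (0.176), TIGAR to CITED2 (0.180) and PMAIP1 to CDKN2B (0.198). The second in the order was EPHA2 for BBC3, DGKQ for BAX, FOS for PMAIP1, RELT for AEN, DAPK1 for TP53I3, SAT1 for TP53INP1, EGR3 for TIGAR, GCC1 for TRIAP1 and EFNB1 for PHLDA3. None of these 20 neighbours was itself one of the 10 genes.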

How the data were processed

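The deposited values are raw counts of reads per gene, 1 table per library. Per the submitters' processing notes the tools were fastp 0.23.2, STAR 2.7.9 and featureCounts of Subread, on hg38; use of strand, treatment of multi-mapping reads and the annotation release are not given in the sources used here. The labels' protocols name RNeasy Plus Mini columns for the RNA and a KAPA mRNA HyperPrep preparation (poly-A selection). Coordinates are those of the deposited tables. Symbols matched 60463 of 60649 identifiers. Promoter sequences are from RefSeq.

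Counts were tested with edgeR 4.0.16 in R 4.3.3: filterByExpr, TMM scaling, 1 mean per group over all 12 libraries, robust quasi-likelihood F tests of 7 contrasts, and Benjamini-Hochberg adjustment over the 16683 genes tested. A gene was called at an adjusted p under 0.05. Standard errors came from the F statistic, and intervals are at 95%. The biological coefficient of variation was 14.5%. CPM used the scaled library sizes. The code was tested on simulated data. No libraries held identical values, and all 12 were kept. Alternatives were DESeq2 1.42.0, its size factors, total counts as the only scaling, other filters, only the groups compared, a replicate block, a threshold of 0.01 and each library left out. The 10 genes, the other lists, the tests and the rule for named genes (the 10 genes, at most 5 per list and contrast by adjusted p, relatives of the 10 and the nearest patterns) were chosen with earlier results of these data known; ASCC3, BAK1, BCL2, BCL2L1 and XIAP were named after their values were seen. The values of some genes that met the rule are not reported here.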

Additional observations from a re-analysis of the deposited data

Results flagged for a closer look

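In the fit of all 12 libraries the log2 effect of teriflunomide on TP53INP1 differed between spheroids with and without lurbinectedin. The interaction was -0.94 on the log2 scale (95% interval -1.26 to -0.61, adjusted p = 0.0193, edgeR's quasi-likelihood test), so the 2.44-fold change without lurbinectedin stood beside a 1.28-fold difference with it. The 3 teriflunomide libraries exceeded all 3 controls, and the 3 combination libraries exceeded all 3 lurbinectedin libraries. The call was lost on leaving out any 1 control library, any 1 lurbinectedin library or combination replicate 1. With the replicate block (adjusted p = 0.0750, edgeR) and with total counts as the only scaling (adjusted p = 0.234) it was lost too. Mean CPM went from 22.2 to 54.2 with teriflunomide alone. It went from 186.7 to 238.2 when teriflunomide was added to lurbinectedin, so the step in CPM was not smaller. What sets the difference was not tested.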

How the results depend on the processing

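With lurbinectedin, with the combination against control, and in both comparisons with teriflunomide as the reference, all 10 genes were called under every alternative run. The other comparisons depended on the setting, and the cause was not tested. For teriflunomide against control the count of 4 became 6 without the expression filter, 1 with total counts as the only scaling, 2 with only the groups compared, 1 at an adjusted p under 0.01, 7 with both libraries of the largest mitochondrial share left out, and 1 to 7 with single libraries left out: 2 without control 1, 1 without control 2, 2 without control 3 and 7 without teriflunomide replicate 3. Over all genes its 1002 calls became 1907 with DESeq2, 1800 without the filter, 265 with total counts, 283 with only the groups compared, 415 with the replicate block, and 216 to 1555 without single libraries. They were 230 at an adjusted p under 0.01 and 2757 (16.3%, 9.2% as higher) without both libraries of the largest mitochondrial share. For the interaction the count of 1 became 0 with total counts, 0 at 0.01, 3 without the filter, 3 with DESeq2 (BBC3, FDXR and TP53INP1), 7 with both of those libraries left out, and 0 to 7 without single libraries: 0 without any 1 control or lurbinectedin library or combination replicate 1, and 7 without teriflunomide replicate 3. Over all genes the interaction's 43 calls (0.258%) became 258 (1.55%) with DESeq2, 195 without the filter, 6 with total counts and 5 at 0.01. They became 616 (3.61%) without teriflunomide replicate 3 and 1839 (10.9%, 4.97% as lower) without both of those libraries. For the combination against lurbinectedin the count of 0 became 1 with DESeq2 (3.5% over all genes) and 5 without both of those libraries (21.5% over all genes). Signs turned for uncalled differences only. With total counts AEN's interaction was 0.073. Without single libraries it ran from -0.30 to 0.12 (positive without teriflunomide replicate 1 or 2, lurbinectedin replicate 1 or combination replicate 1), and AEN's teriflunomide difference ran from -0.23 to 0.20 (positive without teriflunomide replicate 3, and 0.20 without both libraries). Against lurbinectedin, PMAIP1 ran from -0.12 to 0.49 and TIGAR from -0.10 to 0.44, both negative without combination replicate 2, and -0.12 and -0.10 without both libraries. Total counts as the only scaling moved the median of all genes with lurbinectedin from 0.05 to -0.18 and the share of calls that were higher from 50.2% to 39.2%; for the interaction that share went from 14% to 33.3% of 6 calls.

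Whether the replicate numbers pair the libraries was not settled. Deviations of libraries with the same number correlated between -0.402 and 0.144. Libraries with different numbers were not correlated for comparison, so these values cannot decide it. With the replicate block the interaction was called in 0 genes (TP53INP1 -0.94, adjusted p = 0.0750), and with teriflunomide 3 genes were called, BBC3 no longer (0.90, adjusted p = 0.0779).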
